A study of Mus musculus with 24 samples.

Results

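The expression of 10 genes of monocyte recruitment and of the colony-stimulating factor 1 (CSF1) axis was analysed in CD45+ cells of EMT6-hHER2 tumors, the genes being chosen by their symbols out of the 16996 genes measured. They were the chemokines Ccl2, Ccl7, Ccl8 and Ccl12, the chemokine receptors Ccr2 and Cx3cr1, the surface antigen gene Ly6c2, the growth factors Csf1 and Csf2 and the receptor Csf1r, and all 10 were found. EMT6-hHER2 cells, mouse mammary carcinoma cells made to express human HER2, were implanted in the mammary fat pad of wild-type female Balb/c mice. Treatment began at a tumor volume of 80 mm3 and was a single intravenous dose of 20 mg/kg of trastuzumab, 15 mg/kg of T-DM1 or 1 mg/kg of T-PNU, or none. Each of the 4 groups had 6 mice, which the labels list at 10 to 12 weeks of age. Trastuzumab is an antibody to human HER2. T-DM1 is trastuzumab joined to a toxin that acts on microtubules, and T-PNU carries an anthracycline derivative that acts on DNA, so the conjugates differ in payload and, here, in dose. After 10 days the tumors were taken, CD45+ cells were enriched with magnetic beads, and 1 RNA-seq library was made per mouse, which gave 24 samples. By the study's methods, tumors of the T-PNU group were by then below their starting volume. In its efficacy experiments, trastuzumab and T-DM1 did not prevent tumor growth. Volumes at harvest are not given per sample, so treatment and tumor size at harvest cannot be told apart. The tumor cells are a single line carrying a human antigen, and the samples are mixtures of immune cells, so that in these data fewer cells of a type and less RNA per cell cannot be told apart.

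Classical monocytes leave the bone marrow and enter tissues through the receptor CCR2, whose ligands include CCL2, CCL7 and CCL12, and CCL8 belongs to the same monocyte chemoattractant protein family. In mice these cells carry high Ly6C on the surface, which Ly6c2 encodes together with its close relative Ly6c1, and Ly6C is also found on some T cells. Within tumors monocytes can become macrophages, which depend on CSF1 acting through CSF1R, while the fractalkine receptor CX3CR1 is typical of non-classical monocytes and many resident macrophages. CSF2, also called GM-CSF, is made by activated T cells and by some tumor and stromal cells.

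Values are log2 normalized expression as deposited, on which 1 unit is a doubling, and their depth in reads is unknown. All 10 genes had passed the filter on low counts applied before deposition. Ptprc, which encodes CD45, lay between 14.01 and 15.52 in every sample, and every T-PNU sample (14.75 to 15.52) lay above every T-DM1 sample (14.01 to 14.61). Between these groups 13.2% of all genes did not overlap. Untreated samples B1 and C1 stood apart for the 10 genes, since B1 was the lowest untreated sample for 8 of the 10 and C1 the highest for 7 and the lowest for the other 2 (Csf1 and Csf2). In the T-PNU group sample C2 was lowest for 8 genes. By mean log2 over marker lists, B1 and C2 also had the highest T cell and the lowest macrophage levels of their groups. These levels were 11.17 and 12.14 in B1 and 11.53 and 13.06 in C2. Their part in the low values was not tested. Untreated B1 and C1, like E2 and B3 of the trastuzumab group, are missing from the 20 that the heatmaps of the study label. The group differences and the correlations of the 10 genes were therefore also computed in those 20. Gene lists, marker lists and the genes most like the 10 were read in the 24 samples only. Why these 4 samples are missing there is not stated. The study's methods compared expression between samples to find and remove possible outliers, without naming any in its text. A choice by expression would make the fit of the 20 dependent on the values. The column names also hold an unexplained number, which runs in one series for untreated and another for all treated samples, and whatever it marks and treatment cannot be told apart.

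Adjusted for exonic length, the 4 chemokines were the most abundant of the 10 genes in every group. On the scale of log2 value minus log2 length in kilobases, the untreated means were 14.18 for Ccl7, 14.17 for Ccl8, 13.71 for Ccl2 and 12.96 for Ccl12. The growth factor receptor Csf1r followed at 11.87, Csf1 at 11.13 and Ly6c2 at 10.61, and the receptors Cx3cr1 and Ccr2 stood at 9.80 and 9.68. Csf2 was lowest at 6.58, and only 31.5% of all genes had a lower mean log2 value than Csf2, against 85.2% to 98.7% for the other 9 genes. Ly6c2 took rank 7 by level per length in untreated and trastuzumab samples, rank 5 in T-DM1 and rank 6 in T-PNU samples, and Cx3cr1 lay above Ccr2 in untreated and trastuzumab samples but below it after both conjugates. All 10 genes varied more between mice of a group than most genes did, with within-group SDs of 0.332 (Csf1r) to 0.557 (Ccl8) against a median of 0.20 over all genes. The groups accounted for a median of 30.8% of the variance of the 10 genes and 25.8% of that of all genes, from 12.5% for Ccr2 to 66.0% for Ly6c2.

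**Figure D1:**
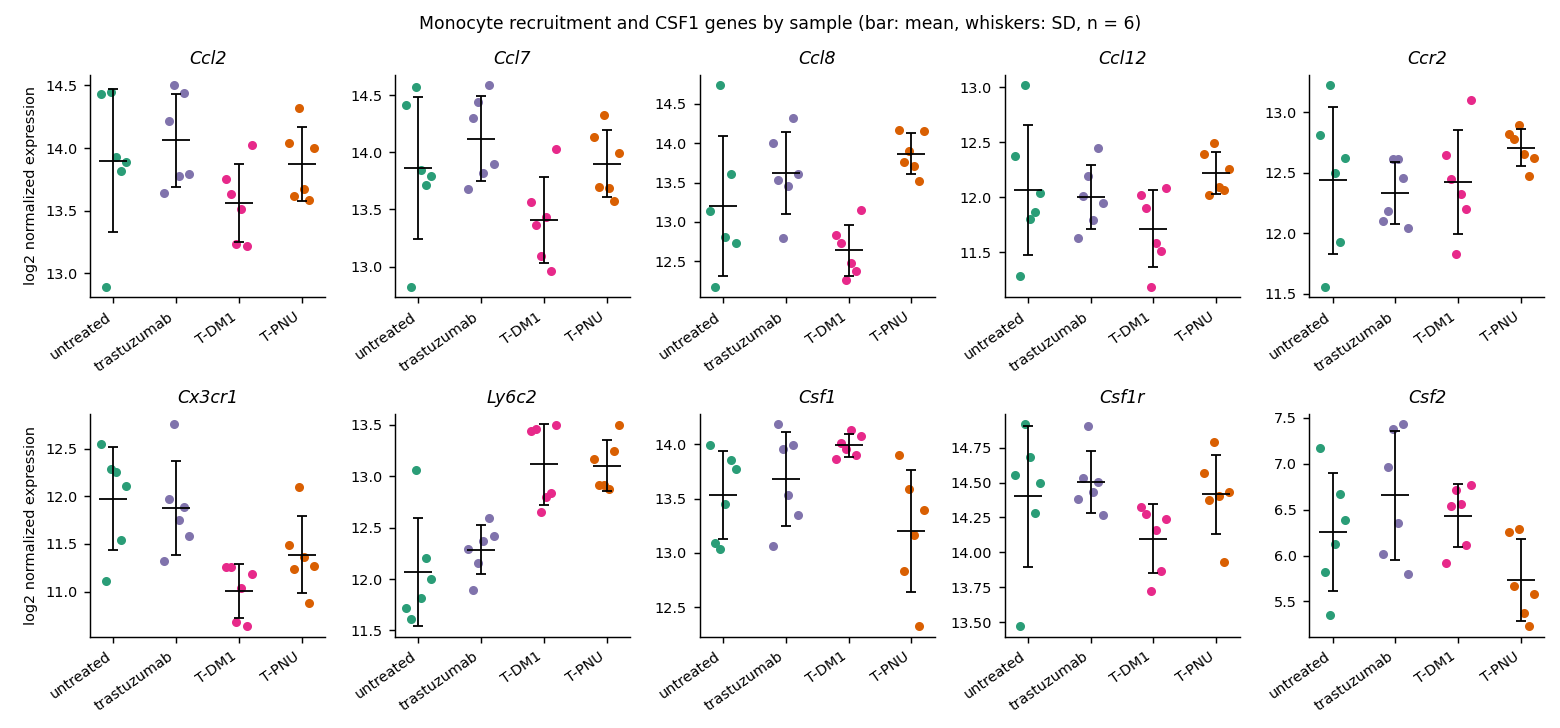
Log2 normalized expression (vertical axis, scaled per gene) of the 10 genes in the 4 groups, with 1 point per mouse, the mean as a horizontal bar and the SD as whiskers (n = 6). Ly6c2 lay higher in T-DM1 and T-PNU than in trastuzumab samples with no overlap, and Ccl8 in T-PNU samples lay above every T-DM1 sample.

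Ccl2 and Ccl7, neighbouring genes on mouse chromosome 11 that encode CCR2 ligands, did not pass the test in any comparison of the 24 samples. Untreated samples spanned 12.89 to 14.45 for Ccl2 (median 13.91) and trastuzumab samples 13.64 to 14.51 (median 14.00). The range was 13.22 to 14.02 after T-DM1 (median 13.58) and 13.58 to 14.32 after T-PNU (median 13.84). The ranges of all 4 groups overlapped, and the T-PNU mean differed from the untreated one by -0.03 on the log2 scale (95% interval -0.48 to 0.42). Ccl7 had the same untreated samples at its ends, B1 at 12.82 and C1 at 14.57. Its median was 13.82 in untreated, 14.10 in trastuzumab, 13.40 in T-DM1 and 13.85 in T-PNU samples. In 5 of 6 T-DM1 samples Ccl7 lay below every trastuzumab sample, a difference of -0.71 ± 0.24 (SE) with limma's adjusted p = 0.155.

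Ccl8 and Ccl12 lie further along the same cluster of chromosome 11. Because Ccl8 gave the clearest contrast between the conjugates and Ccl12 did not pass it, the 250 bases before the start sites of both genes are shown (RefSeq, GRCm38.p6, forward strand, 5′ to 3′), Ccl8 at chr11:82114935-82115184 and Ccl12 at chr11:82101595-82101844. Capitals mark 2 of 6 motifs searched on both strands, the PU.1 core GAGGAA (or its reverse complement) and the TATA box TATAAA.
Ccl8: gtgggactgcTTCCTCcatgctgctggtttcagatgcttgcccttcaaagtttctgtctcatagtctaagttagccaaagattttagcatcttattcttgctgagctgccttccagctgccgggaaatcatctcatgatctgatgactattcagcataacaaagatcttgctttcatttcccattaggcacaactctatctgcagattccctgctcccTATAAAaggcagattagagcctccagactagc
Ccl12: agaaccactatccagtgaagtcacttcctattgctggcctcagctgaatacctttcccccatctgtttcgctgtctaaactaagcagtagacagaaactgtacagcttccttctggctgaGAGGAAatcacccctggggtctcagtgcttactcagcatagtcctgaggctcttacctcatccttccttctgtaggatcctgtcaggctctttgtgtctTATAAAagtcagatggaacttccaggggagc
Both windows held a TATA box, 32 bases before the start of Ccl8 and 31 before that of Ccl12, and both held a PU.1 core, at 240 and 130 bases. Among 32851 RefSeq promoter windows of this length, 12.4% held TATAAA and 23.3% GAGGAA. These matches are a description of the letters and were not tested for binding.

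Ccl8 was lower after T-DM1 than after T-PNU. T-PNU samples ran from 13.52 to 14.17 (median 13.83) and T-DM1 samples from 12.27 to 13.15 (median 12.60), without overlap. Untreated samples covered both ranges, from 12.17 in B1 to 14.74 in C1 (median 12.97), and trastuzumab samples lay between 12.80 and 14.32 (median 13.57). T-PNU exceeded T-DM1 by 1.23 ± 0.30 (SE) on the log2 scale, a fold of 2.35 (limma's adjusted p = 0.00574), and by 1.16 to 1.33 when any of the 24 samples was left out. Against untreated samples the T-PNU difference was 0.67 ± 0.30 (adjusted p = 0.174) and the T-DM1 difference -0.56 ± 0.30 (adjusted p = 0.265). The macrophage list moved the same way, as 7 of its 12 genes were higher after T-PNU than after T-DM1 (29.8% of all genes were called there). Its list levels (mean log2 over the list) were 13.06 to 13.64 against 12.47 to 13.06. Ptprc, too, was higher in every T-PNU than in every T-DM1 sample, a comparison in which 13.2% of all genes did not overlap. The part of Ptprc and the macrophage genes in the Ccl8 difference was not tested.

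Ccl12 had smaller differences. Its values were 11.29 to 13.02 (median 11.95) in untreated, 11.63 to 12.45 (median 11.98) in trastuzumab, 11.18 to 12.08 (median 11.74) in T-DM1 and 12.02 to 12.49 (median 12.17) in T-PNU samples. T-PNU and T-DM1 samples overlapped narrowly. The difference between them, 0.51 ± 0.21 (SE), had an unadjusted p of 0.0237 in limma and an adjusted p of 0.0689.

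Ccr2, the receptor of classical monocytes, did not pass the test in any comparison. The medians were 12.56 in untreated (11.56 to 13.23), 12.32 in trastuzumab (12.04 to 12.62), 12.39 in T-DM1 (11.83 to 13.10) and 12.71 in T-PNU samples (12.47 to 12.89). All groups overlapped, and the spread was smallest after T-PNU (SD 0.153 against 0.258 to 0.607). The T-PNU mean exceeded the untreated one by 0.27 (95% interval -0.19 to 0.72).

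Ly6c2 rose after both conjugates. It lies on chromosome 15, and the window before its first RefSeq start site (GRCm38.p6, chr15:75111972-75112221, minus strand, 5′ to 3′) is shown because this gene alone among the 10 was called after both conjugates, with the PU.1 core in capitals 108 bases before the start and no match to the other 5 motifs.
Ly6c2: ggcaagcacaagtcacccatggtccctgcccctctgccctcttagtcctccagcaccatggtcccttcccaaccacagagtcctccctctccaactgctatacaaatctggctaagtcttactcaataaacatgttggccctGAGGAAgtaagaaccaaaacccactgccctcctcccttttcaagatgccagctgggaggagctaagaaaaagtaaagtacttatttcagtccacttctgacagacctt
Untreated samples lay between 11.61 and 13.06 (median 11.91) and trastuzumab samples between 11.90 and 12.60 (median 12.33). T-DM1 samples ran from 12.65 to 13.50 (median 13.14) and T-PNU samples from 12.88 to 13.50 (median 13.04). Every sample of both conjugate groups therefore exceeded every trastuzumab sample, and untreated C1 was the single untreated sample inside the conjugate range. The difference from untreated was 1.05 ± 0.20 (SE) after T-DM1, a fold of 2.07 (limma's adjusted p = 0.00665), and 1.04 ± 0.20 after T-PNU, a fold of 2.05 (adjusted p = 0.0463). The conjugates differed from each other by -0.01 (95% interval -0.43 to 0.41).

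The T-DM1 call for Ly6c2 held whichever of the 24 samples was left out (adjusted p up to 0.0237), whereas the T-PNU call lay close to the threshold. The T-PNU call held without untreated C1, T-PNU G1 or A2, trastuzumab E2, G2 or A3, or T-DM1 E3 or G3 and was lost without any of the other 16 samples, with adjusted p from 0.000567 (without C1) to 0.134 (without A1) and differences from 0.94 to 1.23. Against trastuzumab, the differences were 0.82 ± 0.20 for T-PNU (adjusted p = 0.125) and 0.83 ± 0.20 for T-DM1 (adjusted p = 0.0561). Of the 81-base sequences in Ly6c2 transcripts, 8.59% also occur in Ly6c1, so the paralogs are not fully separable, and Ly6c1 gave 1.05 ± 0.19 after T-PNU (adjusted p = 0.0463) and 1.02 ± 0.19 after T-DM1 (adjusted p = 0.00547). T cell markers differed widely between samples, with list levels of 9.24 to 11.53 (median 10.52) in T-PNU, 8.27 to 10.45 (median 9.43) in T-DM1 and 8.16 to 11.17 (median 9.24) in untreated samples. Their part in the Ly6c2 differences was not tested.

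Cx3cr1, on chromosome 9, fell after T-DM1. The window before its RefSeq start (chr9:120068297-120068546, minus strand, 5′ to 3′) is shown for contrast with Ly6c2, since none of the 6 motifs searched occurs in it.
Cx3cr1: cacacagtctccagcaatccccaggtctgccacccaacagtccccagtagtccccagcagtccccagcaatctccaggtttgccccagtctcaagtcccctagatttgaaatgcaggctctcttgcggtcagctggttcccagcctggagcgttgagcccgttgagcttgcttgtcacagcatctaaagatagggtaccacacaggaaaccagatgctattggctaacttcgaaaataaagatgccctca
Untreated samples lay between 11.11 and 12.55 (median 12.18), trastuzumab samples between 11.32 and 12.76 (median 11.82), T-DM1 samples between 10.64 and 11.26 (median 11.11) and T-PNU samples between 10.88 and 12.10 (median 11.31). All T-DM1 samples were below all trastuzumab samples, while untreated B1 (11.11) fell within the T-DM1 range. The T-DM1 mean was lower than the untreated mean by a log2 difference of -0.96 ± 0.24 (SE), a ratio of 0.512 (limma's adjusted p = 0.0202). This call was lost without untreated A1 or without T-DM1 E3, with adjusted p up to 0.0578 (without E3). The T-PNU difference was -0.59 ± 0.24 (adjusted p = 0.142), and that between T-DM1 and trastuzumab -0.87 ± 0.24 (adjusted p = 0.0894). The C1q gene C1qb, of the macrophage list, was also lower in T-DM1 than in untreated samples (-0.75 ± 0.19, adjusted p = 0.0227). It was the 1 gene of that list called there, where 6.27% of all genes were called. Of the 12 macrophage genes 3 were higher, the list median was -0.54, and 7 had an unadjusted p under 0.05. Of 8 non-classical monocyte markers 5 were higher in the same comparison, with a list median of 0.20 and 0 called. The part of either list in the Cx3cr1 difference was not tested.

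Csf1, the growth factor of monocytes and macrophages, was lower after T-PNU than after T-DM1. Its window on chromosome 3 (chr3:107760470-107760719, minus strand, 5′ to 3′) is shown because it held the only NF-kB consensus match among the windows examined, in capitals 154 bases before the start, a match present in 3.90% of all windows.
Csf1: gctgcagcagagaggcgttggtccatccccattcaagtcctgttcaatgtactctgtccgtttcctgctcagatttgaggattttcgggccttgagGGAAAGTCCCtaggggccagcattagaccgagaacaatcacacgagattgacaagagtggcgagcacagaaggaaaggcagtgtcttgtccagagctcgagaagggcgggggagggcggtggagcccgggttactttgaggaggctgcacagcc
T-DM1 samples were tightly grouped between 13.87 and 14.13 (median 13.98), whereas T-PNU samples ranged from 12.32 in C2 to 13.90 in G1 (median 13.28). Untreated samples lay between 13.03 and 13.99 (median 13.61) and trastuzumab samples between 13.06 and 14.19 (median 13.75). Of 6 T-PNU samples, 5 were below every T-DM1 sample, and G1 overlapped. The difference was -0.79 ± 0.22 (SE), a ratio of 0.578 (limma's adjusted p = 0.0126), and it stayed between -0.93 and -0.62 with an adjusted p of at most 0.0389 when any sample was left out. The T-PNU difference from untreated was -0.33 ± 0.22 (adjusted p = 0.341), and that of T-DM1 0.46 ± 0.22 (adjusted p = 0.221).

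Markers of tumor and stromal cells moved with Csf1. Of 12 such genes, 8 were lower and 3 higher after T-PNU than after T-DM1, where 29.8% of all genes were called. List levels were 9.57 to 10.72 against 10.74 to 11.04. The list was lowest in T-PNU C2 and highest of that group in G1, the samples with the lowest and the highest Csf1. Col1a1, a collagen gene, differed by -1.62 ± 0.29 (SE, adjusted p = 0.00139) and Pdgfrb, a receptor of fibroblasts and pericytes, by -1.57 ± 0.28 (adjusted p = 0.00133). The keratin gene Krt14 (1.02 ± 0.23, adjusted p = 0.00417) and the epithelial gene Epcam (0.84 ± 0.29, adjusted p = 0.0331) differed in the other direction, as did Cdh5 (0.66 ± 0.22, adjusted p = 0.0256). Another keratin gene, Krt8, was lower (-0.96 ± 0.22, adjusted p = 0.00434), as were Wnt7b (-1.49 ± 0.36, adjusted p = 0.00517) and Erbb2 (-0.98 ± 0.26, adjusted p = 0.00919). Keratin genes thus went both ways. Ptprc moved the other way between these groups, as given above. The part of these genes in the Csf1 difference was not tested.

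Csf1r, the receptor for CSF1, did not pass the test in any comparison of the 24 samples. Values were 13.47 to 14.92 (median 14.53) in untreated, 14.27 to 14.90 (median 14.47) in trastuzumab, 13.73 to 14.33 (median 14.20) in T-DM1 and 13.93 to 14.79 (median 14.42) in T-PNU samples. The groups overlapped, and the interval of the T-PNU to untreated difference ran from -0.36 to 0.39. Csf2 was lowest after T-PNU, at 5.23 to 6.28 (median 5.62), against 5.36 to 7.17 (median 6.26) in untreated, 5.80 to 7.43 (median 6.66) in trastuzumab and 5.92 to 6.77 (median 6.55) in T-DM1 samples. Of the 6 T-PNU samples, 4 lay below every trastuzumab sample and 4 below every T-DM1 sample. The differences were -0.93 ± 0.30 (SE, adjusted p = 0.166) and -0.70 ± 0.30 (adjusted p = 0.0775), with unadjusted p of 0.00531 and 0.0281 in limma, so neither passed.

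When the 4 groups were ordered by mean for each gene, no neighbouring pair of groups differed past an adjusted p of 0.05. The widest step was for Ly6c2, between T-PNU and trastuzumab (0.82, adjusted p = 0.125). Across the 4 groups together, 3 of the 10 genes passed limma's F test, Ly6c2 (adjusted p = 0.00381), Cx3cr1 (0.0212) and Ccl8 (0.0261), while 18.8% of all genes passed it.

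**Figure D2:**
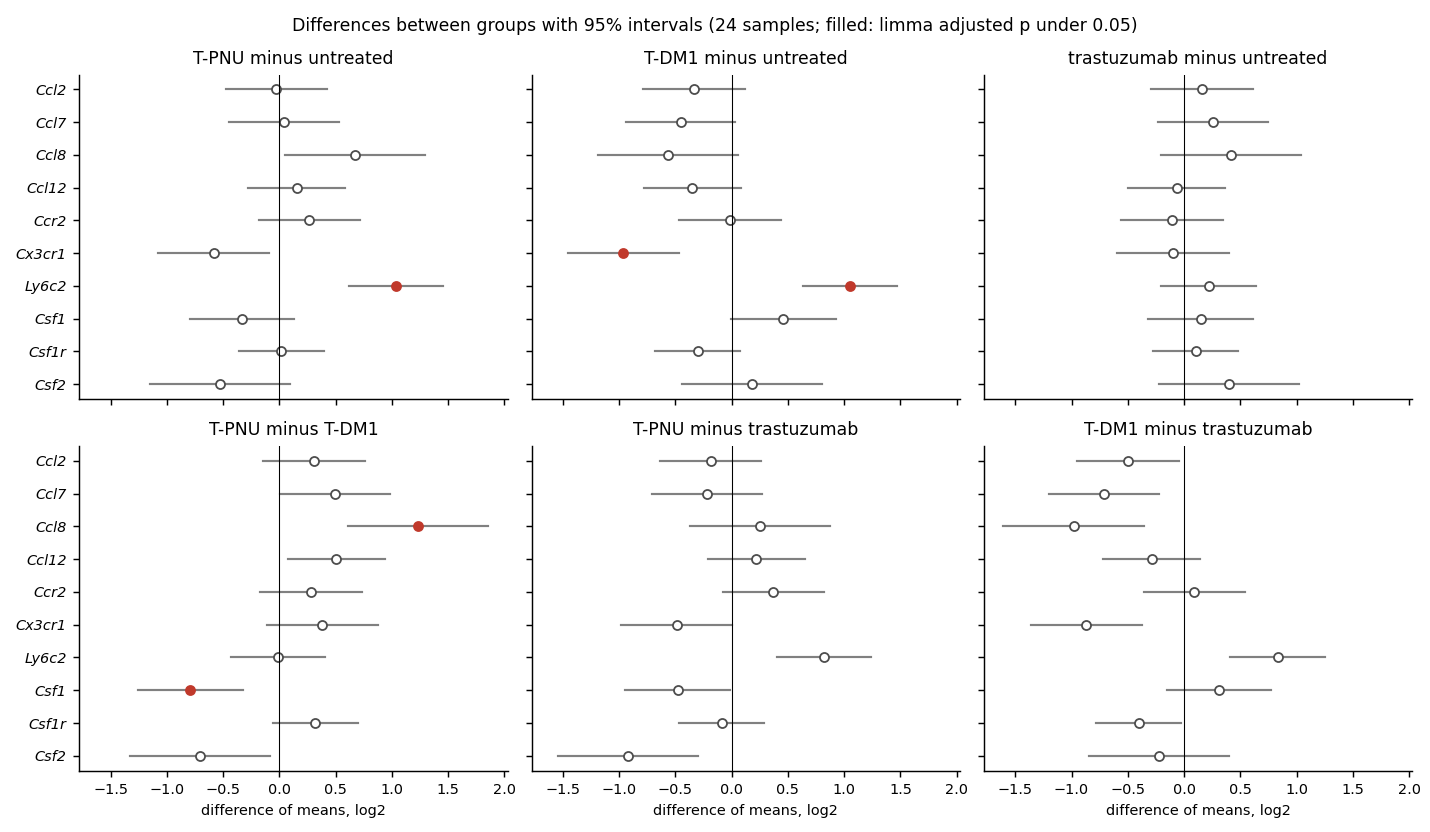
Differences of group means (horizontal axis, log2) with 95% intervals for the 10 genes in the 6 comparisons of 24 samples, filled where limma's adjusted p was under 0.05. The 5 filled points are Ly6c2 after T-PNU and after T-DM1, Cx3cr1 after T-DM1, and Ccl8 and Csf1 between the conjugates.

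By comparison, T-PNU against untreated samples called 1 of the 10 genes (Ly6c2) and 0.188% of all genes, and the median log2 difference of the 10 genes was 0.03 beside 0.01 for all genes. T-DM1 against untreated called 2 (Ly6c2 higher, Cx3cr1 lower) and 6.27% of all genes, with 7 of the 10 genes on the lower side and a median of -0.32 beside -0.02. Trastuzumab against untreated called 0 of the 10 and 0.259% of all genes in limma, none of the 10 having an unadjusted p under 0.05. T-PNU against T-DM1 called 2 (Ccl8 higher, Csf1 lower), while 29.8% of all genes were called, a share above that of the 10 genes, and 5 of them had an unadjusted p under 0.05. T-PNU against trastuzumab called 0 of the 10 in limma, 3 having an unadjusted p under 0.05, and 0.00588% of all genes. T-DM1 against trastuzumab called 0 of the 10 in limma, 6 having an unadjusted p under 0.05 and 7 lying on the lower side, and 0.647% of all genes. Groups did not overlap for Ccl8 between T-PNU and T-DM1, where this held for 13.2% of all genes, for Ly6c2 between T-PNU and trastuzumab (1.31%), and for Ly6c2 and Cx3cr1 between T-DM1 and trastuzumab (2.50%). Comparisons with untreated samples share those samples, so their values are not independent of each other.

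Sample names end in 1 for all untreated, 1 or 2 for T-PNU, 2 or 3 for trastuzumab and 3 for all T-DM1 samples, and the labels do not say what this number marks. With the number as a covariate, limma called 0 of the 10 genes and at most 2 of all genes in any of the 6 comparisons. The Ly6c2 difference from untreated was then 0.97 for T-PNU (adjusted p = 0.338) and 0.62 for T-DM1 (adjusted p = 0.994), that of Cx3cr1 after T-DM1 -0.79 (adjusted p = 0.994), and between the conjugates Ccl8 differed by 1.70 (adjusted p = 0.334) and Csf1 by -0.89 (adjusted p = 0.368). Between untreated and T-DM1 samples, and between T-PNU and T-DM1 samples, no number is shared, so there the number and the treatment cannot be told apart. Among samples numbered 1, Ly6c2 was 13.17 in T-PNU G1, above all 6 untreated samples, and 12.91 in H1, above 5 of them. Among samples numbered 3, trastuzumab A3 (12.60) and B3 (12.42) lay below all T-DM1 samples for Ly6c2. These samples are few, the other genes were not set out this way, and the part of the number was not tested.

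In the 20 samples labelled in the heatmaps, more of the 10 genes passed in 4 of the 6 comparisons, as did more genes of the table. T-PNU against untreated called 5 of the 10, with 31.1% of all genes. Ly6c2 (1.17 ± 0.18, adjusted p = 0.00137) and Ccl8 (0.80 ± 0.23, adjusted p = 0.0180) were higher, and Csf2 (-0.86 ± 0.26, adjusted p = 0.0195), Cx3cr1 (-0.73 ± 0.23, adjusted p = 0.0239) and Csf1 (-0.57 ± 0.21, adjusted p = 0.0478) lower. T-DM1 against untreated again called Ly6c2 (1.18 ± 0.18) and Cx3cr1 (-1.10 ± 0.23), 2 of 10 beside 2.01% of all genes. Trastuzumab against untreated called 0 of the 10 and 0% of all genes in limma, while 0 of the 10 and 865 of all genes had an unadjusted p under 0.05.

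Between the conjugates, the fit of 20 samples called 5 of the 10 genes and 39.9% of all genes. Ccl8, Ccl12 (0.51 ± 0.15, adjusted p = 0.0117) and Ccl7 (0.49 ± 0.18, adjusted p = 0.0337) were higher after T-PNU, and Csf1 and Csf2 (-0.70 ± 0.23, adjusted p = 0.0206) lower, from the same 12 samples as before but with a smaller shared spread. T-PNU against trastuzumab called 4 of the 10 (Ly6c2 higher, Cx3cr1, Csf1 and Csf2 lower) and 28.0% of all genes, and the largest difference was that of Csf2 (-1.30 ± 0.26, adjusted p = 0.00623). T-DM1 against trastuzumab called 3 of the 10 (Ly6c2 higher, Ccl7 and Cx3cr1 lower) and 0.812% of all genes. Ccr2 and Ccl2 passed in none of the 6 comparisons of 20 samples, nor did Csf1r.

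Other genes of the pathways were read from fixed lists in the 24 samples. Of 16 further chemoattractant and receptor genes, 0 passed in T-PNU against untreated (3 at an unadjusted p under 0.05), where the largest difference was that of the chemokine gene Cxcl12 (1.01 ± 0.25 SE, limma's adjusted p = 0.0603). Between T-PNU and T-DM1, 5 were higher, among them the chemokine genes Ccl6 (0.92 ± 0.25, adjusted p = 0.0103) and Cxcl12 (0.83 ± 0.25, adjusted p = 0.0177), and 2 lower, Cx3cl1, which encodes the ligand of CX3CR1 (-0.97 ± 0.26, adjusted p = 0.00922), and the scavenging receptor gene Ackr4 (-0.37 ± 0.08, adjusted p = 0.00230). The list median was 0.35 beside 0.03 for all genes, and 7 of 16 is to be read beside the 29.8% of all genes called. Ackr4 was the 1 of 16 list genes called in T-DM1 against untreated (0.31 ± 0.08, adjusted p = 0.0193), where 6.27% of all genes were called.

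Of 17 measured genes of CSF1, CSF2 and interleukin-34 signaling (18 listed), 5 were higher and 2 lower after T-PNU than after T-DM1, where 29.8% of all genes were called. In the other 5 comparisons 0 passed, with 2 to 6 at an unadjusted p under 0.05 in each. The genes named next are from T-PNU against T-DM1. Il34, which encodes the second ligand of CSF1R, was lower (-0.95 ± 0.21 SE, limma's adjusted p = 0.00354), in the direction of Csf1, as was the neutrophil growth factor gene Csf3 (-0.68 ± 0.18, adjusted p = 0.00845). Among those higher were the phosphatase genes Inpp5d (0.49 ± 0.14, adjusted p = 0.0138) and Ptpn6 (0.37 ± 0.12, adjusted p = 0.0240). In T-PNU against untreated, the largest difference was that of Stat5a (0.62 ± 0.43, adjusted p = 0.347).

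Of 14 transcription factors of monocytes and macrophages, Klf4 (0.47 ± 0.12 SE, limma's adjusted p = 0.0230) and Cebpb (0.44 ± 0.12, adjusted p = 0.0320) were higher in T-DM1 than in untreated samples. Maf (0.76 ± 0.17, adjusted p = 0.00395), Irf8 (0.54 ± 0.17, adjusted p = 0.0244) and Cebpa were higher in T-PNU than in T-DM1 samples. These 3 of 14 are to be read beside the 29.8% of all genes called there, and Klf4 and Cebpb beside 6.27%. Against untreated samples T-PNU gave 0 calls among the 14, with 5 at an unadjusted p under 0.05 and all 14 differences positive (median 0.25). Of 13 genes of leukocyte adhesion, 5 were higher after T-PNU than after T-DM1, where 29.8% of all genes were called, including the integrin subunit gene Itga4 (0.86 ± 0.18, adjusted p = 0.00310) and Pecam1 (0.72 ± 0.19, adjusted p = 0.00847), and 0 passed elsewhere, where 2 to 7 had an unadjusted p under 0.05.

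Marker lists of cell types were read beside the 10 genes. Of all genes, 29.8% were called in T-PNU against T-DM1 and 6.27% in T-DM1 against untreated. List counts in these comparisons are to be read beside those shares. Of 10 classical monocyte markers other than Ly6c2 and Ccr2, 1 was called in T-DM1 against untreated (Thbs1, 0.56 ± 0.14 SE, adjusted p = 0.0258) and 0 in T-PNU against untreated (5 at an unadjusted p under 0.05). The list medians were 0.40 and 0.39 in those comparisons, and list levels ran from 11.73 to 12.41 in T-DM1, 11.84 to 12.02 in T-PNU, 11.43 to 12.11 in trastuzumab and 11.19 to 12.08 in untreated samples. Their part in the Ly6c2 differences was not tested. After T-PNU 3 of the 10 were lower than after T-DM1, among them the matrix genes Fn1 (-1.27 ± 0.32, adjusted p = 0.00669) and Vcan (-0.69 ± 0.20, adjusted p = 0.0145), which fibroblasts also make. Of 8 non-classical monocyte markers, 2 were higher (Spn and Itgal) and 1 lower (Eno3, -0.79 ± 0.18, adjusted p = 0.00447) between T-PNU and T-DM1. In the macrophage list the largest differences between T-PNU and T-DM1 were those of Mertk (0.93 ± 0.21, adjusted p = 0.00411) and Adgre1 (0.86 ± 0.22, adjusted p = 0.00645).

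**Figure D3:**
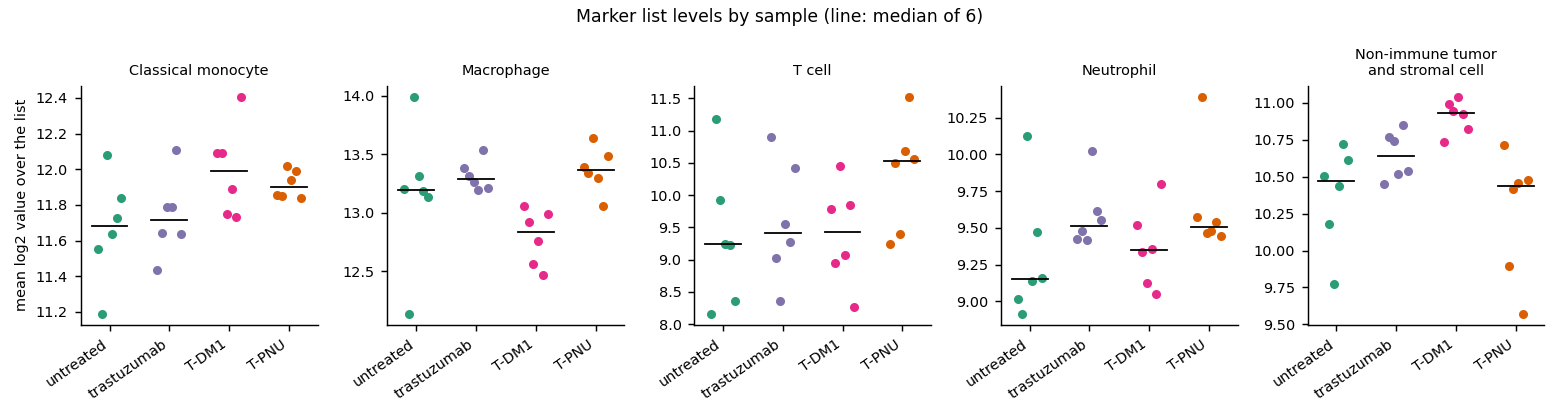
Mean log2 value over the genes of 5 marker lists (vertical axis, scaled per list) in the 4 groups, with 1 point per mouse and the median of 6 as a line. Tumor and stromal markers lay higher in every T-DM1 sample (10.74 to 11.04) than in any T-PNU sample, and T cell markers spanned 8.16 to 11.53 over all samples.

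Of 12 T cell and 7 B cell markers, 0 passed in any comparison, and in T-PNU against untreated 3 T cell and 0 B cell markers had an unadjusted p under 0.05. The range was wide, with T cell list levels of 9.24 to 11.53 in T-PNU samples and 8.16 to 11.17 in untreated ones. All 5 measured NK cell markers (6 listed) were higher after T-PNU than after T-DM1, the largest being Klrb1c (0.84 ± 0.25 SE, limma's adjusted p = 0.0154), and list levels were 7.03 to 7.67 against 6.52 to 7.02. Of 9 neutrophil markers, Retnlg (0.84 ± 0.21, adjusted p = 0.00637) and Ly6g (0.44 ± 0.16, adjusted p = 0.0421) were higher in that comparison, and Mmp9 was higher in T-DM1 than in untreated samples (1.10 ± 0.24, adjusted p = 0.0105). Of 8 mast cell and basophil markers, Kit (0.56 ± 0.21, adjusted p = 0.0449) and Ms4a2 (0.42 ± 0.15, adjusted p = 0.0423) were higher after T-PNU than after T-DM1. These 2 of 8 and the 2 of 9 neutrophil markers are to be read beside the 29.8% of all genes called in that comparison. In T-DM1 against untreated samples, 3 of 12 tumor and stromal markers were higher, led by Col1a1 (1.32 ± 0.29, adjusted p = 0.0122) and Dcn (1.10 ± 0.18, adjusted p = 0.00224). Krt14 was called in T-PNU against untreated (1.15 ± 0.23, adjusted p = 0.0470).

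Over the 24 samples, 8 pairs of the 10 genes were compared by two-sided permutation tests, with p adjusted over the 8 pairs. Ccl2 and Ccl7 varied together most closely (Pearson's r = 0.98, Spearman's rho = 0.97, both p = 1e-05, the smallest that 100000 permutations can give, and adjusted p = 2.67e-05 for r), and r was 0.98 without the 2 samples farthest from the median. Csf1r and Cx3cr1 followed (r = 0.82, rho = 0.89, both p = 1e-05, adjusted p = 2.67e-05 for r), with r = 0.88 without untreated B1 and T-DM1 E3. Ccl12 and Ccr2 had r = 0.80 and rho = 0.77 (permutation p = 1e-05 and 7.00e-05, adjusted p = 2.67e-05 and 0.000187), and r = 0.71 without untreated C1 and T-DM1 E3. With group means removed, these r were 0.98, 0.88 and 0.84, and over the 20 heatmap samples 0.98, 0.89 and 0.69. Within single groups r was 0.97 to 0.99 for Ccl2 and Ccl7 and 0.88 to 0.97 for Csf1r and Cx3cr1. For Ccl12 and Ccr2 it was 0.92 in untreated, 0.39 in trastuzumab, 0.93 in T-DM1 and 0.66 in T-PNU samples.

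The other pairs of a CCR2 ligand with the receptor were also positively related. For Ccl2 and Ccr2, r was 0.66 and rho 0.54 (permutation p = 0.000490 and 0.00742, adjusted p = 0.000784 and 0.00989), and r was 0.57 without untreated B1 and trastuzumab G2. For Ccl7 and Ccr2, r was 0.64 and rho 0.54 (permutation p = 0.000790 and 0.00733, adjusted p = 0.00105 and 0.00989), with r = 0.51 without B1 and T-DM1 G3. With group means removed, r was 0.81 for Ccl2 and Ccr2 and 0.82 for Ccl7 and Ccr2. Over the 20 samples labelled in the heatmaps, r was 0.47 (permutation p = 0.0354) and 0.49 (permutation p = 0.0277). Within groups r for Ccl2 and Ccr2 was 0.91 in untreated, 0.51 in trastuzumab, 0.95 in T-DM1 and 0.68 in T-PNU samples. Ccl8 and Ccl12 gave r = 0.75 and rho = 0.67 (permutation p = 5.00e-05 and 0.000540, adjusted p = 0.000100 and 0.00108), 0.62 without B1 and C1, but 0.06 within the trastuzumab group. Their r over the 20 heatmap samples was 0.74.

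**Figure D4:**
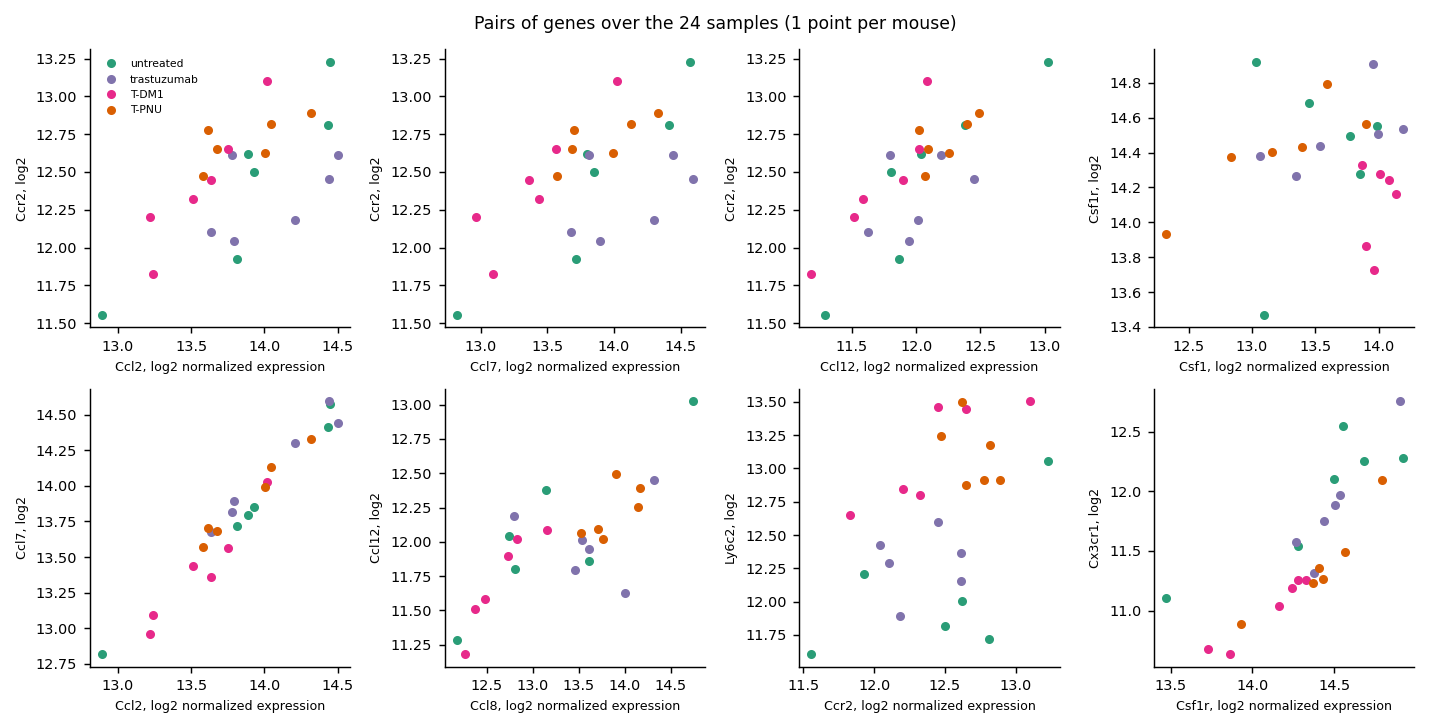
Log2 normalized expression of 8 pairs of the 10 genes, with 1 point per mouse colored by group. Ccl2 and Ccl7 lie along a line (r = 0.98), while for Csf1 and Csf1r (r = 0.13) the T-DM1 samples sit at high Csf1 over a range of Csf1r.

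Ccr2 and Ly6c2, both markers of classical monocytes, were positively related over the 24 samples (r = 0.46, rho = 0.47, both permutation p = 0.0225, adjusted p = 0.0257). Without untreated B1 and T-DM1 E3, r was 0.38 (permutation p = 0.0842), so that passing the threshold rests on those samples. Over the 20 samples labelled in the heatmaps, r was 0.28 (permutation p = 0.235). With group means removed, r was 0.54 (permutation p = 0.0392, adjusted p = 0.0442), and within groups it was 0.60 in untreated, 0.13 in trastuzumab, 0.85 in T-DM1 and -0.50 in T-PNU samples. For Csf1 and its receptor Csf1r no relation over all 24 samples together was detectable at this sample number (r = 0.13, permutation p = 0.538, adjusted p = 0.538, rho = -0.01, permutation p = 0.979, adjusted p = 0.979, and r = -0.02 without T-PNU H1 and C2). With group means removed, however, r for this pair was 0.44 and passed (permutation p = 0.0442, adjusted p = 0.0442). Within groups r was 0.18 in untreated, 0.62 in trastuzumab, 0.23 in T-DM1 and 0.87 in T-PNU samples. Over the 20 heatmap samples it was 0.13 (permutation p = 0.592).

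The genes most like each of the 10 over the 24 samples, by Pearson's r and leaving out the 10 themselves, are given as a description. Ccl2 and Ccl7 were both closest to Cd93 (r = 0.92 for both), and Ccl2 next to the scavenger receptor gene Msr1 (0.91) and Dab2 (0.89), Ccl7 to Npl (0.91) and Vamp3 (0.91). Ccl8 was closest to Cd200r4 (0.94), Creg1 (0.93) and Chp2 (0.93), and Ccl12 to Blvra, Milr1 and Casp8 (0.93 each). Ccr2 was closest to E230029C05Rik (0.93), Ms4a6d (0.92) and Ms4a6c (0.92), and Cx3cr1 to the chemokine gene Cxcl14 (0.97), Gatm (0.95) and Bhlhe41 (0.93). Ly6c2 was closest to Ly6c1 (0.99), the monocyte-expressed Plac8 (0.94) and the interferon regulatory factor gene Irf7 (0.94). Csf1 had the nearest match among the growth factors, with Ergic1, the lysyl oxidase gene Loxl2 and the collagen-modifying Crtap (0.97 each). Csf1r was closest to Ctsa (0.95), Olfm1 (0.94) and the integrin gene Itgam (0.94), and Csf2 to the matrix metalloproteinase gene Mmp10 (0.93), Gm1045 (0.92) and the cytokine gene Lif (0.92). All samples share the same normalization, and each of these genes was picked as the highest of the table.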

How the data were processed

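RNA-seq of CD45+ cells was analysed for 24 mice, 6 per group, with 1 library per mouse. Reads had been aligned to mm10 with STAR 2.4.2a and counted per gene by strand with featureCounts (Subread 1.5.0), genes with a low average count had been removed, and DESeq2 had been used by the authors for their tests. The deposited values are log2 normalized by the authors for library size, and the transformation is not given in the sources used here. No value repeats within a sample, which shrinkage of log2 values per gene would give, and shrinkage can lower the size of a difference. Read counts could not be read back from the table, depth is unknown, and a count test was not used.

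A linear model of the 4 groups was fitted to all 16996 genes by limma 3.58.1 in R 4.3.3, with eBayes set to a mean-dependent prior, p-values were adjusted over all genes by Benjamini-Hochberg, and genes were called at an adjusted p under 0.05. SEs and 95% intervals use limma's moderated spread. The 10 genes and all gene lists were chosen with earlier results of these data known. Named list genes were those called with the 2 largest differences in each direction, or otherwise the largest difference between T-PNU and untreated samples, and the 3 genes most like each of the 10 were named by Pearson's r. Lengths, shared 81-base sequences and overlaps came from GENCODE M21 (GRCm38), which held 99.6% of the gene identifiers, and promoter windows from RefSeq (GRCm38.p6), which held 7 of the 10 genes outside chromosomes not shown. The 6 motifs searched on both strands were the interferon-stimulated response element core GAAANNGAA, the gamma-interferon activation site TTCNNNGAA, the AP-1 site TGANTCA, the PU.1 core GAGGAA, the TATA box TATAAA and the NF-kB consensus, which may overlap. The annotated span of Cx3cr1 overlaps Gorasp1, Csrnp1 and Xirp1 on the same strand, with 0 exonic bases in common. Alternatives were the 20 samples labelled in the heatmaps, quantile normalization, centring on sample medians, a filter to genes above the median level, fits of the compared groups alone, sample weights, no trend, a stricter threshold (adjusted p under 0.01 and an absolute log2 difference above 1), the number in the sample name as a covariate, and each sample left out in turn. The fit and the permutation test were tested on simulated data. Mice are separate animals, and tumors were not pooled. Figures were drawn with matplotlib 3.10.9 in Python 3.11.15.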

Additional observations from a re-analysis of the deposited data

How the results depend on the processing

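The transformation behind the log2 values, and whether they were shrunken, is not stated and depth is unknown, so small differences of the low gene Csf2 are the least certain. No paired analysis was possible because the labels give the groups no shared replicate numbers. Of single values (differences of the 10 genes and correlations), 494 values under other settings kept direction and side of the threshold, 12 lost a call, 38 gained 1 and 14 reversed, and the cause was not tested. Median centring, no trend and the filter on the mean (which 9 of the 10 genes passed) left the counts of genes called as they were in all 6 comparisons.

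T-PNU against untreated called 5 genes in 20 samples, 4 with sample weights and 0 under quantile normalization, the fit of the compared groups, the stricter threshold or the covariate, against 1. T-DM1 against untreated (2) called 4 with weights, 1 under the stricter threshold and 0 with the covariate. T-PNU against T-DM1 (2) called 5 in 20 samples, 5 in the fit of both groups, 6 with weights, 1 under the stricter threshold and 0 with the covariate. T-PNU against trastuzumab (0) called 4 in 20 samples and 3 with weights, and T-DM1 against trastuzumab (0) called 3 in 20 samples, 3 in the fit of both groups and 5 with weights. The F test (3) called 9 in 20 samples, 9 with weights, 1 under the stricter threshold and 0 with the covariate. With 1 sample left out, the counts ran from 0 to 2 for T-PNU against untreated, 1 to 3 for T-DM1 against untreated, 2 to 3 for T-PNU against T-DM1, 0 to 1 for T-PNU and 0 to 2 for T-DM1 against trastuzumab, 2 to 4 for the F test, and stayed at 0 for trastuzumab against untreated.

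Reversed differences were all of uncalled genes. In 20 samples they were Ccl7 (-0.0432) and Csf1r (-0.0867) in T-PNU minus untreated, Ccl12 (0.0896) and Ccr2 (0.00158) in trastuzumab minus untreated, Ccr2 in T-DM1 minus trastuzumab (-0.0405) and Csf2 in T-DM1 minus untreated (-0.16). With sample weights they were Ccl12 (0.0674, trastuzumab minus untreated) and Csf1r (-0.0348, T-PNU minus untreated). Quantile normalization reversed Ccr2 in T-DM1 minus untreated (0.00743), and centring on medians Ly6c2 in T-PNU minus T-DM1 (0.0465). The covariate reversed Ccr2 in T-DM1 minus untreated (0.25) and trastuzumab minus untreated (0.0762) and Ly6c2 in T-PNU minus T-DM1 (0.35). The correlation of Csf1 and Csf1r was -0.0206 without the 2 farthest samples.

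With 1 sample left out, differences that changed sign spanned the following ranges. For T-PNU minus untreated these were -0.00252 to 0.345 (Ccl12), -0.229 to 0.0823 (Ccl2), -0.17 to 0.18 (Ccl7) and -0.17 to 0.12 (Csf1r). For trastuzumab minus untreated they were -0.22 to 0.13 (Ccl12), -0.0407 to 0.271 (Ccl2), -0.282 to 0.0518 (Ccr2), -0.0825 to 0.207 (Csf1r) and -0.274 to 0.0180 (Cx3cr1). For T-DM1 minus untreated they were -0.19 to 0.14 (Ccr2) and -0.000093 to 0.36 (Csf2). The remaining ones were -0.0443 to 0.211 for Ccr2 in T-DM1 minus trastuzumab, -0.16 to 0.00977 for Csf1r in T-PNU minus trastuzumab and -0.107 to 0.0636 for Ly6c2 in T-PNU minus T-DM1.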

Other observations

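Differences between pairs of the 10 genes within a sample, chosen after their values were seen and given with no test, were steadier than the genes themselves in some groups and less steady in others. In trastuzumab samples, Ccl8 minus Ccl2 had an SD of 0.707, against 0.519 for Ccl8 and 0.372 for Ccl2. Ccl8 minus Ccl2 on the log2 scale lay between -1.04 and -0.85 in all 6 T-DM1 samples (SD 0.0703), between -0.41 and 0.15 in T-PNU samples and between -1.71 and 0.36 in trastuzumab samples, whereas untreated samples ran from -1.29 to 0.30. Ly6c2 minus Ccr2 was 0.40 to 1.02 in T-DM1 and 0.02 to 0.88 in T-PNU samples, -0.46 to 0.38 in trastuzumab samples and -1.09 to 0.28 in untreated samples, where untreated C1, with the highest Ly6c2 of its group, also had the highest Ccr2. Cx3cr1 minus Csf1r was -3.23 to -3.02 in T-DM1 samples (SD 0.0759), -3.17 to -2.69 in T-PNU samples, -3.06 to -2.15 in trastuzumab samples and -2.74 to -2.0 in untreated samples. Csf1 minus Csf1r was -0.46 to 0.23 in T-DM1 samples and -1.61 to -0.67 in T-PNU samples, without overlap, and trastuzumab (-1.32 to -0.35) and untreated samples (-1.88 to -0.38) overlapped both. These are differences of log2 values normalized together and not levels per length.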
